A study of Mus musculus with 6 samples.

Results

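The MYC and MXD network is a small family of transcription factors that share the partner MAX or its relative MLX. The 10 genes described here are Myc, Mycn and Mycl, which encode the activating MYC proteins, Max and Mlx, which encode the shared partners, and Mxd1, Mxd3, Mxd4, Mxi1 and Mnt, which encode the antagonists. They were chosen by gene symbol in the probe annotation, and all 10 were found among the 19937 genes measured, with 1 probe set each. A probe set is the group of array probes that reads a gene.

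Expression was measured on 6 single-colour arrays of C57BL6 mouse hematopoietic progenitors depleted of cells with mature lineage markers (Lin-). All cells came from Rosa26rtTA mice, which make a reverse tetracycline transactivator in most tissues, so that a tetracycline-responsive promoter is switched on by doxycycline. The cells grew in serum-free medium with 50 ng/ml each of stem cell factor, Flt3 ligand and interleukin 11 and 20 ng/ml of interleukin 3, received a lentiviral vector 24 h after isolation and 1 µg/ml doxycycline another 24 h later, and were sorted for EGFP after 20 h of doxycycline in the series description or 24 h in the protocol. On 3 arrays, labelled EVI1, the vector carried Evi1 and EGFP joined by an internal ribosome entry site; on the other 3, labelled EGFP, it carried EGFP alone. EVI1 is a zinc finger transcription factor of the Mecom locus, overexpressed in some myeloid leukemias. Control cells thus also carried the transactivator, a vector, doxycycline and EGFP. Nothing in the labels ties a replicate to its own animal, culture or transduction, so p-values measure only the spread between these arrays, which may be technical.

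MYC proteins bind DNA as dimers with MAX at the E-box, the word CACGTG, and raise the transcription of genes for ribosome production, nucleotide synthesis and cell growth. MXD proteins, MXI1 and MNT compete for MAX, bind the same word and recruit SIN3 and histone deacetylases, which lower transcription. In blood formation Myc is high in cycling progenitors, and Mxd1 is known to rise as myeloid cells leave the cycle and mature. MLX dimerises with some of the antagonists and with the glucose-sensing factors MLXIP (MondoA) and MLXIPL (ChREBP).

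The word itself was present in the promoters of 4 members in the RefSeq promoter table (GRCm38.p6), which holds 250 bases before and 50 bases after a transcription start. These are shown because MAX dimers can meet the network's own genes there, together with 4 genes known to be induced by MYC that were lower in the arrays labelled EVI1 and 1 such gene, Ldha, whose difference did not pass the test. Each stretch is on the strand of its gene, 5′ to 3′, with the E-box in capitals. Those of Max, Mnt, Mxd4 and Mlx lie at chr12:76962234-76962263 (minus strand), chr11:74830774-74830833 (plus), chr5:34187897-34187956 (minus) and chr11:101087223-101087282 (plus). Those of Prmt3, Eif5a, Hspd1, Nop2 and Ldha lie at chr7:49778318-49778357 (plus), chr11:69921428-69921487 (minus), chr1:55088291-55088350 (minus), chr6:125131796-125131855 (plus) and chr7:46845632-46845691 (plus).
Max: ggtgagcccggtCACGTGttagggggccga
Mnt: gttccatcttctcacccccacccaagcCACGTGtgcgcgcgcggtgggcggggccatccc
Mxd4: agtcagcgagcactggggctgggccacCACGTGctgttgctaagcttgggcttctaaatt
Mlx: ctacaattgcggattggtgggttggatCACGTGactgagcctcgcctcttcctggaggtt
Prmt3: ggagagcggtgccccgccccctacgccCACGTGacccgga
Eif5a: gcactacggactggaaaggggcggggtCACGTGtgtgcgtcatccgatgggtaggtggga
Hspd1: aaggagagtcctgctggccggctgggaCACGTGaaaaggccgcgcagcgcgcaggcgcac
Nop2: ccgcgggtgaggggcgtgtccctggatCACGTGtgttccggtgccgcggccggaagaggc
Ldha: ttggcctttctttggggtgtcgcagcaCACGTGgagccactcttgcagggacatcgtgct

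The E-box reads the same on both strands, so each promoter was searched only on the strand of its gene. Promoters that held the word were counted, and overlapping promoters of a gene can share a site. The word was found in 7.15% of all 32851 promoters in the table and in 8.26% of those of the genes tested. Among the members, 9 had 11 promoters there, and 4 of the 11 held it, while the promoters of Mycn, Mycl, Mxd1, Mxd3 and Mxi1 did not hold these letters. None of the 4 members with the word passed the test of a difference between the groups.

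Of the 10 members, Myc fell in the arrays labelled EVI1, the antagonists Mxd1 and Mxi1 rose, and the other 7 did not pass the test. Myc was 4.0-fold lower, while Mxd1 and Mxi1 were each about 1.5-fold higher (1.51-fold and 1.49-fold). Rose and fell are used of genes with an adjusted p under 0.05 in limma's moderated test, adjusted by Benjamini-Hochberg over all 19937 genes. Over all genes 18.2% were called, 9.06% as higher and 9.18% as lower. The 3 of 10 members called are too few to be set apart from that share.

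The arrays and their labels were checked first. Mecom, from which EVI1 is made, was at 6.39, 7.53 and 6.86 on the EGFP arrays and at 6.29, 6.18 and 6.49 in those labelled EVI1 (log2 intensity), a difference of -0.60 ± 0.26 (SE) that did not pass (limma adjusted p = 0.166). It was called without EGFP replicate 1 (-0.87, adjusted p = 0.0306). Both means lie below the 95th percentile of the olfactory receptor genes, a stand-in for genes that are off (6.96 on the EGFP and 6.99 on the EVI1 arrays). It is not known here if these probes read the vector's Evi1, so every direction below is that of the labels. The medians of the 6 arrays were 7.24 to 7.31. The progenitor marker Kit, which fell by 0.61, was at 9.16 to 9.28 on the EGFP and 8.48 to 8.89 on the EVI1 arrays, above that percentile in both groups; that call was lost without EGFP replicate 3, EVI1 replicate 1 or EVI1 replicate 2 (-0.59 to -0.54, adjusted p = 0.0599 to 0.0637). Of the 5 measured T cell markers 3, and of the 4 B cell markers 2, had both group means under it. Of the others, the T cell marker Cd3g fell by 1.28, a call lost without any 1 of EVI1 replicates 1, 2 and 3, and the B cell marker Cd79b rose by 1.22.

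**Figure D1:**
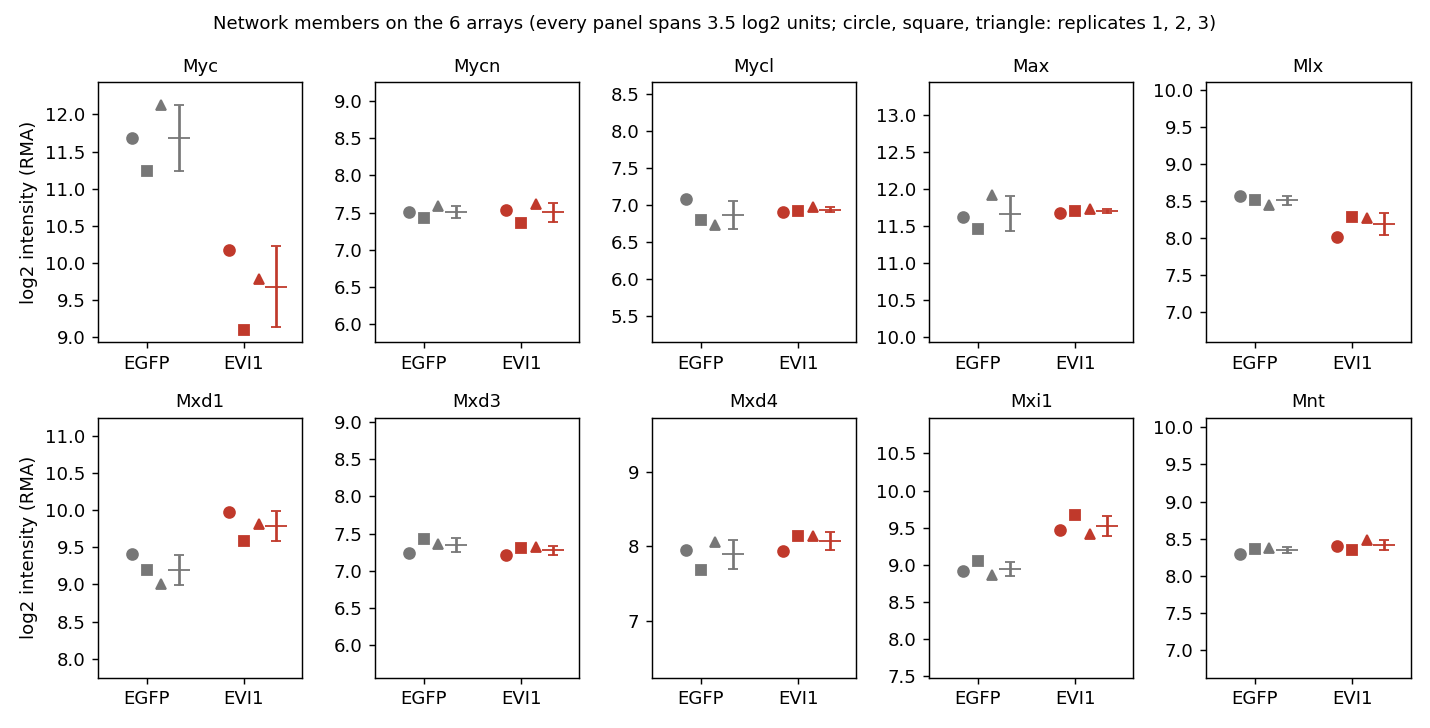
Log2 intensity of the 10 members on each array, EGFP in grey and EVI1 in red, with the mean and SD of 3 arrays beside the points; every panel spans the same range of log2 units. Myc is lower on all EVI1 arrays, Mxd1 and Mxi1 are higher, and Mlx is slightly lower, while the groups of the other 6 members overlap.

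Among the activators, the difference lay in Myc, which drives growth and division. Its log2 intensity was 11.68, 11.24 and 12.12 in EGFP replicates 1, 2 and 3 and 10.17, 9.10 and 9.78 in EVI1 replicates 1, 2 and 3. Every EVI1 array lay below every EGFP array, by at least 1 log2 unit, although the arrays of a group also differed among themselves (SD 0.44 and 0.55, n = 3 each). The log2 fold change was -2.0 ± 0.30 (SE; 95% interval -2.68 to -1.32; limma adjusted p = 0.00269), which ranks 55 among 19937 genes ordered from the lowest fold change. Less Myc RNA per cell and fewer cells with much Myc cannot be told apart in such bulk samples.

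Mycn, the paralog best known from neural tissue and also active in blood stem cells, was at 7.50, 7.42 and 7.59 on the EGFP arrays and 7.54, 7.35 and 7.61 on the EVI1 arrays. The groups overlapped, and the interval of the log2 difference was -0.26 to 0.26 (limma adjusted p = 0.990). Mycl, the third paralog, was at 7.08, 6.8 and 6.72 against 6.91, 6.92 and 6.97, with both means under the percentile of olfactory receptor genes, so that no level above background was shown. Its difference of 0.07 had an interval of -0.21 to 0.34.

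Max, which encodes the partner with which MYC and MXD proteins bind the E-box, did not pass the test. It was at 11.62, 11.46 and 11.92 on the EGFP arrays and 11.67, 11.70 and 11.73 on the EVI1 arrays, which all lie within the EGFP range. The log2 difference was 0.03 ± 0.13 (SE), and its interval of -0.27 to 0.34 leaves room for a change of up to about 1.26-fold in either direction but not for one as large as that of Myc. Its sign depended on the processing, with -0.06 under array weights and -0.07 without EGFP replicate 2. Mlx, the other partner, was at 8.57, 8.51 and 8.44 on the EGFP arrays and 8.02, 8.28 and 8.27 on the EVI1 arrays. These groups did not overlap, but the difference of -0.32 ± 0.11 (SE) did not pass (limma adjusted p = 0.0999, interval -0.58 to -0.06). Of all genes, 32.6% had groups that do not overlap, and of the members Myc, Mxd1, Mxi1 and Mlx did.

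The antagonists divided into a pair that rose and others that did not pass. Mxi1, which also goes by the name MXD2, was at 8.92, 9.05 and 8.87 on the EGFP arrays and at 9.46, 9.67 and 9.42 on the EVI1 arrays. All EVI1 arrays were higher, and the spread within each group (SD 0.09 and 0.13) was small beside the difference of 0.57 ± 0.11 (SE; 95% interval 0.31 to 0.84; limma adjusted p = 0.0100). The RefSeq promoter table gives Mxi1 3 starts, and which transcripts the probe set reads is not known here. Mxd1 was at 9.40, 9.19 and 9.0 against 9.98, 9.58 and 9.81. The groups again did not overlap, with a difference of 0.59 ± 0.15 (SE; interval 0.25 to 0.93; limma adjusted p = 0.0260). This call was lost without EGFP replicate 3 (0.49, adjusted p = 0.0939), without EVI1 replicate 1 (0.50, 0.0941) and without EVI1 replicate 3 (0.58, 0.0916).

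Mxd3, known to be made in cycling cells, was at 7.24, 7.43 and 7.36 on the EGFP arrays and 7.21, 7.31 and 7.32 on the EVI1 arrays, a difference of -0.07 with an interval of -0.31 to 0.17. For Mxd4 the values were 7.95, 7.68 and 8.05 against 7.93, 8.14 and 8.14, a difference of 0.18 with an interval of -0.12 to 0.48. Mnt, the antagonist found in most cells whether they divide or not, was at 8.30, 8.36 and 8.38 against 8.40, 8.35 and 8.49, a difference of 0.07 with an interval of -0.16 to 0.29. In all of these the groups overlapped. The intervals of Mxd3, Mxd4 and Mnt end below the estimates for Mxd1 and Mxi1, but differences between the changes of members were not tested.

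Set side by side, the change of Myc was lower than that of each antagonist. The log2 fold change of Myc minus that of the antagonist was -2.59 for Mxd1, -2.57 for Mxi1, -2.18 for Mxd4, -2.07 for Mnt and -1.93 for Mxd3. Most of each of these values comes from Myc, whose own change is contained in all of them. Against the mean of the EGFP arrays, Myc stood at -1.51, -2.59 and -1.90 in EVI1 replicates 1, 2 and 3, Mxi1 at 0.52, 0.73 and 0.47, and Mxd1 at 0.78, 0.38 and 0.61. The array with the lowest Myc, EVI1 replicate 2, had the highest Mxi1 and the lowest Mxd1 of its group.

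**Figure D2:**
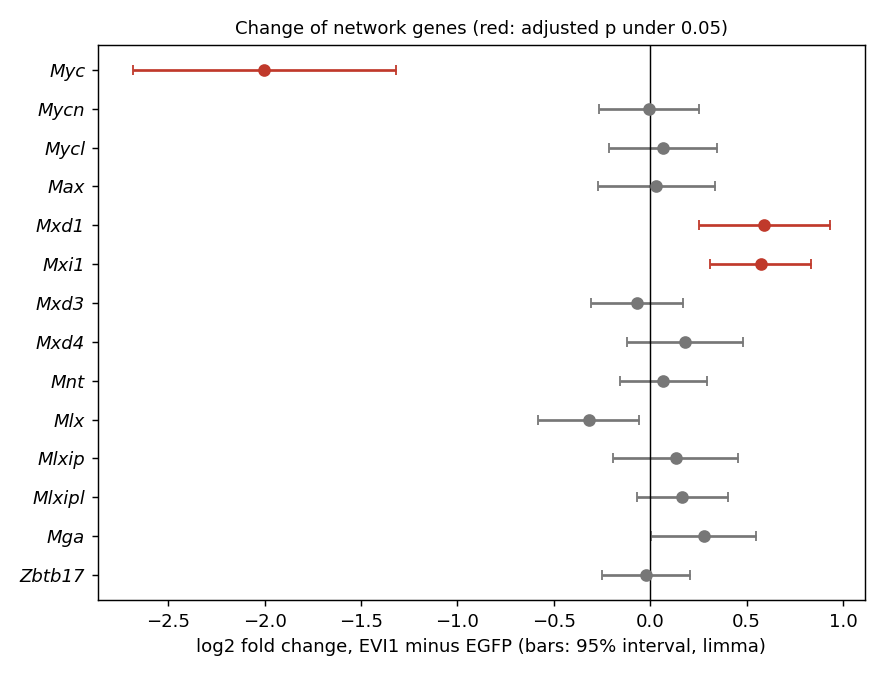
Log2 fold change (EVI1 minus EGFP) of the 10 members and of Mlxip, Mlxipl, Mga and Zbtb17, with 95% intervals from limma; red marks an adjusted p under 0.05. Myc at -2.0 stands far to the left, Mxd1 and Mxi1 lie near 0.6, and the intervals of most other genes include 0.

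None of the 4 further genes that act beside the members was called by limma, and Mga alone had an unadjusted p under 0.05. Mga, a large repressor that binds MAX, was at 10.41, 10.12 and 10.45 on the EGFP arrays and 10.60, 10.61 and 10.59 on the EVI1 arrays, without overlap, a difference of 0.28 (limma adjusted p = 0.167). Mlxip differed by 0.13 (interval -0.19 to 0.46), Mlxipl by 0.17 (-0.07 to 0.40) and Zbtb17, which encodes the MYC-binding factor MIZ1, by -0.02 (-0.25 to 0.21).

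The corepressors that MXD proteins and MNT recruit were called at about the share of all genes. Of 16 measured genes 3 fell, none rose and 13 did not pass (18.8% called), with a median log2 fold change of -0.05 beside 0.01 over all genes. The scaffold Sin3a (-0.49 ± 0.10 SE), the deacetylase Hdac2 (-0.50 ± 0.10) and Sap130 (-0.54 ± 0.11) fell. Sap130 lost its call without EGFP replicate 3, EVI1 replicate 1 or EVI1 replicate 3 (adjusted p = 0.0509 to 0.0521) and Sin3a without EVI1 replicate 3 (0.0508), so that 1 gene was called without EVI1 replicate 3, while 5 fell and 1 rose without EGFP replicate 2 and 4 fell and 1 rose with a replicate block. The other scaffold, Sin3b, was at 7.89, 8.18 and 7.75 against 8.22, 8.48 and 8.41, a difference of 0.43 ± 0.14 that did not pass (limma adjusted p = 0.0719) but did with a replicate block (0.0390) and without EGFP replicate 2 (0.0172). The deacetylase Hdac1 differed by 0.18 ± 0.10 and did not pass.

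Among the chromatin and elongation cofactors of MYC, 5 of 16 fell, 1 rose and 10 did not pass (37.5% called, where 18.2% of all genes were), with a median of -0.23 beside 0.01 over all genes. The ATPases Ruvbl1 (-0.95 ± 0.17 SE) and Ruvbl2 (-0.99 ± 0.20), the actin-like subunit Actl6a (-0.88 ± 0.11), the acetyltransferase Kat2a (-0.96 ± 0.17) and Wdr5 (-0.97 ± 0.17), a histone methyltransferase subunit that binds MYC, fell. Without EVI1 replicate 3 the adjusted p of Ruvbl2 was 0.0517. The acetyltransferase Ep300 rose by 0.53 ± 0.13, a call lost without EVI1 replicate 1, 2 or 3 (0.52 to 0.54, adjusted p = 0.0663 to 0.0784). Cdc73, a subunit of the elongation complex PAF1 and the brightest gene of the list that was not called, differed by -0.15 ± 0.10. Trrap, the scaffold of these acetyltransferase complexes, differed by 0.04 by its brighter probe set and by 0.26 by the other, and neither passed. Trrap and Ruvbl2 were picked with their values already known.

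Genes that set the stability of the MYC protein gave 4 that fell of 16, none that rose and 12 that did not pass, with a median of -0.25. The 4 called are 25% of the list, beside 18.2% of all genes. Cip2a, which protects MYC from dephosphorylation, was at 10.24, 10.02 and 10.25 on the EGFP arrays and 8.47, 8.86 and 8.18 on the EVI1 arrays, a fall of 1.67 ± 0.17 (SE). The mitotic kinase Aurka (-1.27 ± 0.15), which stabilises MYCN, the ubiquitin ligase subunit Skp2 (-1.05 ± 0.15) and the deubiquitinase Usp36 (-0.46 ± 0.12) fell as well. The call of Usp36 was lost without EGFP replicate 3 or any 1 of EVI1 replicates 1, 2 and 3 (adjusted p = 0.0681 to 0.103), and without EGFP replicate 2 the list had 6 that fell and 1 that rose. Huwe1, a ubiquitin ligase that acts on MYC and the brightest gene of the list that was not called, differed by -0.20 ± 0.10. Fbxw7, the ligase subunit that marks MYC for degradation, differed by -0.10 by its brighter probe set and by 0.60 by the other, and neither passed; it too was picked with its values known. Protein levels were not measured.

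Genes known to be induced by MYC were mostly lower in the arrays labelled EVI1. Among the 76 of them that were measured, 54 fell (71.1%), none rose and 22 did not pass, where 9.18% of all genes fell, and the median log2 fold change was -0.73 against 0.01 over all genes. By sign alone, 74 of the 76 were lower, beside 9763 of all 19937 genes. In 63 of them all EVI1 arrays lay below all EGFP arrays, which held for 16.5% of all genes. Without EVI1 replicate 3 the count that fell was 38, and fewer of all genes were called as well.

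The smallest p-values were those of an amino acid transporter, a helicase subunit and a pair of ribosome assembly factors. Slc7a5, the leucine transporter, was at 11.15, 11.50 and 11.55 on the EGFP arrays and 9.10, 9.12 and 8.80 on the EVI1 arrays, a 5.27-fold fall (-2.40 ± 0.15 SE, limma adjusted p = 6.08e-05). Nop56, a core protein of the particles that methylate ribosomal RNA, was at 11.66, 11.61 and 12.01 against 10.01, 9.85 and 10.06, a 3.45-fold fall. Mcm4, of the replicative helicase, fell 3.07-fold, from 10.49, 10.59 and 10.66 to 8.86, 9.07 and 8.94. Utp20, which processes ribosomal RNA, fell 2.62-fold. For all 4 genes the gap between the groups was several times the spread within them.

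Some known targets did not pass. Ldha, lactate dehydrogenase A and one of the first metabolic targets of MYC to be described, was at 12.998, 13.65 and 13.36 on the EGFP arrays and 12.95, 13.36 and 13.19 on the EVI1 arrays. These overlap, and the difference of -0.17 had an interval of -0.58 to 0.25. Riox2 and Prps2 were the members of the list with a positive difference, 0.46 and 0.30, and neither passed; both were picked with their values known. Riox2 was higher on every EVI1 array than on any EGFP array, and it was called with a replicate block (adjusted p = 0.0323) and without EGFP replicate 1 (0.0421).

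The share of promoters with an E-box was not tested and is given as a description. Of 85 promoters of the list 20 held it (23.5%), beside 8.26% of the promoters of all genes tested and 7.15% of the whole table. The promoters of the targets that fell held it in 22.6% of cases and those of the targets that did not pass in 26.1%. Some of these promoters overlap and share a site. Counted by gene, 26.2% of the targets with a promoter held it, beside 9.52% of the genes tested. The share by gene was 24.4% for the targets that fell and 30% for those that did not pass. The list's promoters also had a higher median GC content, 60.7% against 57.7% for the genes tested and 52.7% in the table, and the word contains CG. Prmt3 (-1.09 ± 0.11 SE), a protein arginine methyltransferase, Eif5a (-1.23 ± 0.22), a translation factor, Hspd1 (-0.90 ± 0.15), the mitochondrial chaperonin, and Nop2 (-0.66 ± 0.13), which methylates ribosomal RNA, fell and carry the stretches printed above, as does Ldha, which has the word at 2 places. These 4 were chosen for display with their values known. Eif5a, Hspd1 and Ldha also have other RefSeq promoters without the word. Which of their transcripts the probe sets read is not known here.

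Genes that MYC is known to hold down leaned the other way. Among 12 measured, 6 rose, 1 fell and 5 did not pass, at a median of 0.58, where 9.06% of all genes rose. Thbs1, the antiangiogenic thrombospondin, was at 9.50, 8.84 and 8.85 on the EGFP arrays and 11.59, 11.03 and 11.33 on the EVI1 arrays, a 4.77-fold rise (2.25 ± 0.21 SE, limma adjusted p = 0.000366). The cell cycle inhibitors Cdkn1c (p57), at 7.79, 7.81 and 7.66 against 9.09, 9.08 and 9.03, and Cdkn1b (p27), at 8.47, 8.26 and 7.87 against 9.51, 9.51 and 8.93, rose without overlap of the groups. Hbp1, a transcriptional repressor that slows the cycle, rose by 0.98 ± 0.19. Pdgfrb, a growth factor receptor of stromal cells, fell by 0.57 ± 0.13, a call lost without EGFP replicate 3, EVI1 replicate 1 or EVI1 replicate 3 (adjusted p = 0.0536 to 0.0726), and Fth1, the ferritin heavy chain, differed by 0.29 and did not pass. Without EGFP replicate 3 or EVI1 replicate 3 the list had 4 that rose. None of the 7 genes of this list with a promoter in the table held the E-box.

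**Figure D3:**
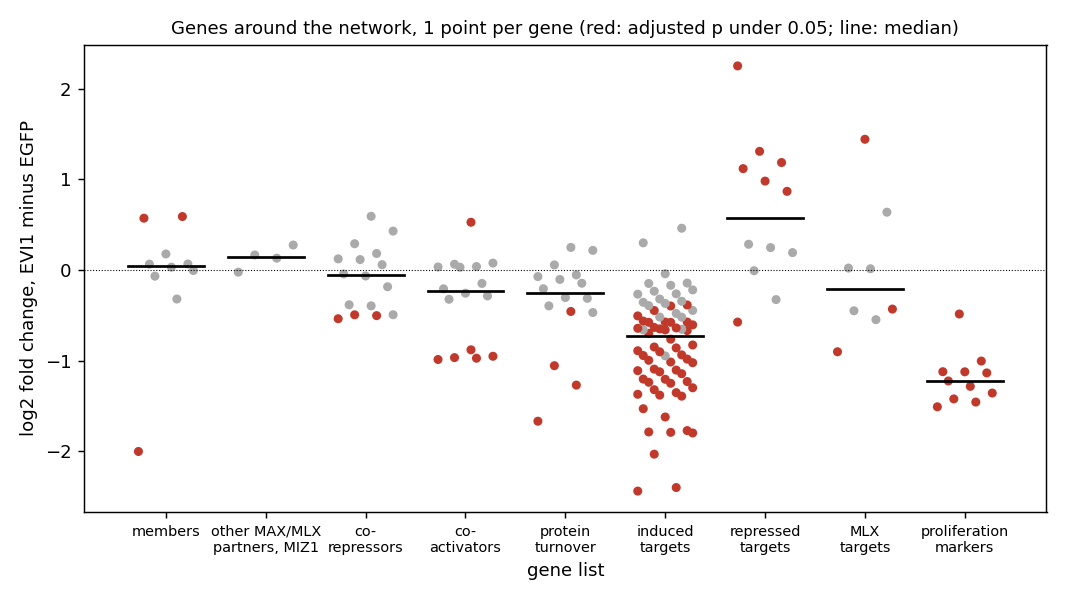
Log2 fold change (EVI1 minus EGFP) of every measured gene in 9 lists, with a line at each list's median; red points have a limma adjusted p under 0.05. Induced targets (median -0.73) and proliferation markers (median -1.22) lie mostly below 0, repressed targets (median 0.58) mostly above it, and the corepressors are spread around 0.

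Targets of MLX with MLXIP or MLXIPL went both ways, 1 up and 2 down of 8 with 5 not passing and a median of -0.21. These 3 called genes, of a list this small, stand beside 9.06% of all genes that rose and 9.18% that fell. Txnip, which restrains glucose uptake, was at 10.23, 10.40 and 9.83 against 11.50, 11.83 and 11.47, a 2.72-fold rise (1.44 ± 0.17 SE). The fatty acid synthesis genes Fasn (-0.90 ± 0.17) and Acaca (-0.43 ± 0.10) fell, the latter not called without EGFP replicate 3, EVI1 replicate 1 or EVI1 replicate 3 (adjusted p = 0.0571 to 0.0831). Elovl6, which lengthens fatty acids, differed by -0.45 ± 0.14 and did not pass (limma adjusted p = 0.0582), though it did with a replicate block (0.0499) and without EGFP replicate 1 (0.0171). Scd1, a desaturase, differed by -0.55 ± 0.20 and did not pass, but did without EVI1 replicate 2 (0.0373). With the replicate block 2 genes of this list rose and 3 fell.

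Markers of proliferation and of several blood cell types moved with these lists. Over all genes 9.18% fell and 9.06% rose, and the counts below stand beside those shares. All 11 measured proliferation markers fell, with array means of the list at 11.16 to 11.29 on the EGFP and 9.96 to 10.21 on the EVI1 arrays and a median change of -1.22. Of 8 progenitor markers 5 fell (3 without EGFP replicate 3 or EVI1 replicate 1), with means of 9.30 to 9.50 against 8.46 to 8.58, and Cd34, which marks early progenitors, changed most (-2.45). All 7 mast cell and basophil markers fell, with means of 10.56 to 11.23 against 9.09 to 9.35. Of these, 5 fell without EGFP replicate 3, EVI1 replicate 1 or EVI1 replicate 3, and 6 without EVI1 replicate 2. Of 10 neutrophil markers 5 fell, among them the granule proteins Mpo, Elane, Prtn3 and Ctsg, and 1, Ly6g, rose (median -1.18), with means of 10.32 to 10.85 against 9.05 to 9.64. Of 7 monocyte markers 4 fell and 2, Cd68 and Ctss, rose (median -1.08), with means of 9.96 to 10.42 against 9.38 to 9.75; 2 fell without EGFP replicate 1, EVI1 replicate 2 or EVI1 replicate 3. The 4 megakaryocyte markers gave 1 in each direction (2 that fell without EGFP replicate 1), with overlapping means of 9.50 to 9.87 and 9.53 to 9.74. No marker of these lists had both group means under the percentile of olfactory receptor genes.

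Erythroid and stromal markers included some that rose, where 9.06% of all genes did. These lists are short, and their counts were not tested against that share. Of 5 erythroid markers 2 rose, with means of 7.66 to 7.70 against 8.02 to 8.18; 1 rose when replicate 1 or 3 of either group was left out, and 3 rose without EGFP replicate 2. Of 5 stromal and endothelial markers 2 rose, with means of 6.97 to 7.23 against 8.08 to 8.40. These were the endothelial genes Cdh5 (2.61) and Tek (2.49), the latter also known from blood stem cells, while the fibroblast genes Col1a1, Col3a1 and Pdgfra differed by 0.05 to 0.11 and did not pass. Of the 5 stromal and endothelial markers, 1 had both group means under the percentile of olfactory receptor genes. The part of all these marker differences in the change of Myc, the antagonists or the targets was not tested.

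Between arrays of a group, the level of Myc and the mean of its induced targets did not follow the same order. That mean was 9.82, 10.07 and 10.06 in EGFP replicates 1, 2 and 3 and 9.06, 9.18 and 9.15 in EVI1 replicates 1, 2 and 3. EVI1 replicate 2, with the lowest Myc of all arrays, had the highest target mean of its group, and EGFP replicate 2, with the lowest Myc of its group, stood level with EGFP replicate 3, which had the highest. EGFP replicate 2 was also the array least like the others of its own group (mean r = 0.979, the other arrays 0.983 to 0.989). No correlation of Myc with the target mean is given, since the 6 arrays form 2 separate groups.

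**Figure D4:**
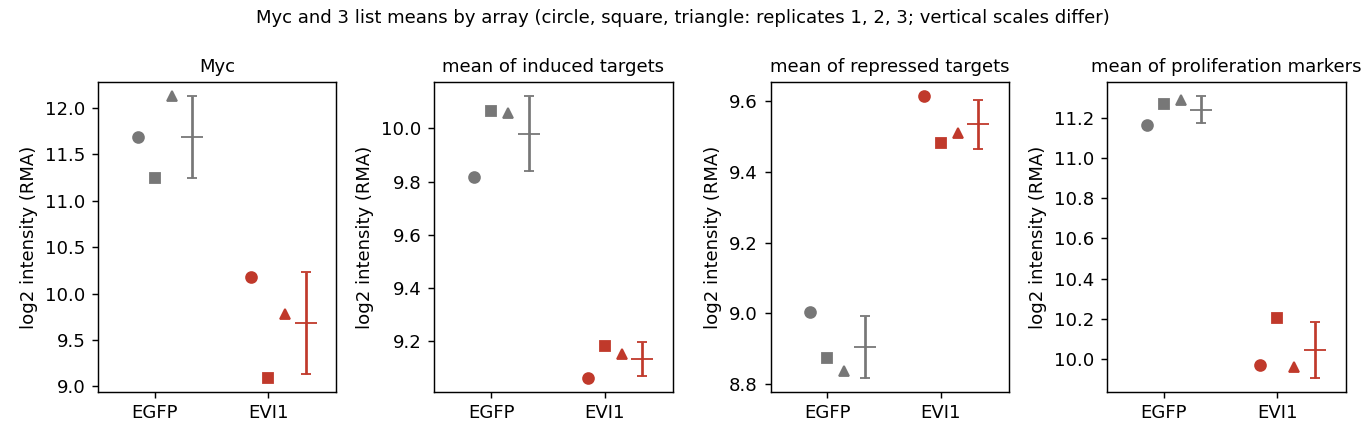
Log2 intensity of Myc and the mean log2 intensity of induced targets, repressed targets and proliferation markers on each array, with the mean and SD of each group; vertical scales differ between panels. In all 4 panels the groups are apart. Within a group the arrays of the induced targets and the proliferation markers are not in the order they have for Myc, while the EVI1 arrays of the repressed targets are.

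The genes whose profile over the 6 arrays was most like that of Myc encode cell surface receptors and proteins of small nucleolar ribonucleoproteins. Likeness was the root mean square difference of log2 values after each gene was centred on its own mean, so genes with a change of similar size come first. The closest were Klrd1, a killer cell lectin (0.24), Nop58 (0.25) and Dkc1 (0.26), which belong to small nucleolar ribonucleoproteins, the mast cell receptor Milr1 (0.29) and P2ry14, a receptor for UDP-sugars (0.30). For Mxi1 they were Urod, an enzyme of heme synthesis (0.03), Vps4a (0.04), Flot1 (0.05), Tmem59 (0.06) and Dnajc14 (0.06).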

How the data were processed

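Cells were compared on 6 arrays, 3 labelled EVI1 and 3 labelled EGFP. The deposited values are log2 intensities, made by the authors with RMA (background correction, quantile normalisation, probe summary) per the submitters' processing notes; its version is not given in the sources used here. No read depth applies to arrays; the precision is limited by how many there are.

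Of 34760 probe sets, 21640 carried 1 gene symbol, 1321 several and 11799 were unnamed here; those without exactly 1 were left out. Each gene was read by its probe set with the highest mean, giving 19937 genes. They were fitted with limma 3.58.1 in R 4.3.3 (lmFit, eBayes, two-sided). SE and 95% intervals come from this fit, and SD is over 3 arrays. The same fit was run on simulated arrays, where mean estimates were checked against changes of known size. The simulated arrays varied independently of each other, so that run does not test the adjusted p-values given here. With 3 against 3 an exact permutation test cannot go below p = 0.1.

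The members and lists were chosen with earlier results of these data known. Lists came from general knowledge, and no set test was run. Named were all members, the 4 genes beside them, and in each list up to 4 with the smallest p, up to 3 called in the rarer direction and the brightest not called. Same-numbered arrays deviated together (r = 0.491, 0.269 and 0.197 for replicates 1, 2 and 3), so the replicate numbers were also used as a block. In all, 15 alternatives were tried. The promoter of Myc was not used here.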

Additional observations from a re-analysis of the deposited data

How the results depend on the processing

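Myc and Mxi1 kept their direction and their call under all 15 alternatives, with log2 fold changes of -2.25 to -1.71 and 0.50 to 0.62. Mxd1 kept its direction (0.49 to 0.70) and lost its call in 3 of the 6 fits that leave out an array. With a replicate block the same 3 members were called (adjusted p = 0.000710 for Myc, 0.0133 for Mxd1 and 0.00710 for Mxi1) and 4361 genes in all; of the genes named, it changed the calls of Sin3b, Elovl6 and Riox2. Leaving out each array in turn gave 2289 (without EVI1 replicate 3) to 4098 genes changed against 3638, 2 to 3 members, 38 to 57 induced targets, and a change of Myc minus the median of the antagonists of -2.49 to -1.85 against -2.18. The sign turned for some differences near 0 that were never called. Leaving out each array in turn gave -0.0601 to 0.0693 for Mycn, -0.0057 to 0.172 for Mycl, -0.0688 (without EGFP replicate 2) to 0.159 for Max, -0.0156 to 0.219 for Mlxip and -0.0512 to 0.0140 for Zbtb17. Fbxw7 ranged from -0.264 to 0.0290, and was at 0.250 as the mean of its probe sets and at 0.602 by the more variable one, where its probe sets disagree. Max was also at -0.0037 after a further quantile normalisation and at -0.0601 with array weights; the cause was not tested. Mycl and Mxd3 were not tested once genes under the median of mean level were left out. No detection calls were used, so dim probe sets such as that of Mycl have no measured floor.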

Other observations

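Pvt1, a long noncoding RNA gene that is the next gene to Myc in the RefSeq table, was also lower. Its brighter probe set was at 9.40, 9.59 and 8.86 on the EGFP arrays and 7.85, 7.31 and 7.38 in the arrays labelled EVI1, without overlap, a fall of 1.77 ± 0.21 (SE, limma adjusted p = 0.00106). The other Pvt1 probe set was at 2.67 to 2.79 against 2.73 to 2.98, near the bottom of the scale. Mir17hg, the host transcript of the miR-17-92 cluster and a known MYC target, was at 7.20, 6.96 and 7.07 against 6.57, 6.76 and 6.55, a fall of 0.45 ± 0.12 (limma adjusted p = 0.0284), a call lost without replicate 1 or 3 of either group (adjusted p = 0.0819 to 0.101); its EVI1 mean lay below the olfactory receptor percentile used above. None of the 5 hairpins of that cluster with a probe set of their own was called by limma, and 1 had an unadjusted p under 0.05; all 5 had both group means under that percentile, so that no level above background was shown. These genes were chosen after the results of the network had been seen.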
